A study of Mus musculus with 24 samples.

Results

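The genes described here are 35 genes of fatty acid and triglyceride synthesis and storage, out of 18820 genes measured in mouse liver on Affymetrix whole-transcript arrays. They were taken as a list of names, chosen with earlier results of these data known, and all 35 were found on the array. Me1 and Acaca, the 2 members with more than 1 probe set, were represented by the probe set whose mean over the arrays was highest. The list holds 5 genes of carbon supply, 3 of fatty acid synthesis, 9 of elongation and desaturation, 4 regulators, 7 of triglyceride assembly, 6 of the lipid droplet coat and its lipases, and 1 of fatty acid uptake.

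The 24 livers formed 8 groups of 3 mice, and every mouse had its own identifier. Untreated mice aged 52 weeks were NEMO/JNK triple knockouts, labelled as lacking NEMO, JNK1 and JNK2 in hepatocytes, and they were set against mice labelled control. NEMO, the product of Ikbkg, is the scaffold through which IkB kinase is activated, and JNK1 and JNK2, the products of Mapk8 and Mapk9, are stress-activated kinases. JNK double knockouts were set against mice labelled control at 40 days of diethylnitrosamine, a liver carcinogen, and again at 28 days of bile duct ligation, a surgical cholestasis. Untreated NEMO/JNK1 double knockouts aged 8 weeks were set against NEMO single knockouts of that age, so both of these groups carry the NEMO deletion. The mice were on a C57BL/6 background. Per the labels' protocols, Alb-Cre, the recombinase driven by the albumin promoter, acts on floxed Jnk1 in hepatocytes, the Jnk2 deficiency is inherited in the whole mouse, and NEMO floxed mice without the deletion were among the controls. The genotype of each control group is given no further, nor are sex or the age at treatment. In whole liver, fewer cells of a type and less RNA per cell cannot be told apart.

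The liver makes fatty acids from sugar. Glycolysis and the citrate shuttle deliver acetyl-CoA, acetyl-CoA carboxylase turns it into malonyl-CoA, and fatty acid synthase, elongases and desaturases build the chains. Acyltransferases join these chains to glycerol, and the triglyceride is stored in droplets coated with perilipins and emptied by lipases. The program is switched on after feeding by SREBP-1c, encoded by Srebf1, and by the sugar sensor ChREBP, encoded by Mlxipl.

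Promoters of 4 members named in the results below are shown, though no comparison uses the promoter sequences. Pklr is the classical target of ChREBP, Mlxipl encodes that factor, Acly stands at the head of the pathway, and Plin4 had lower means in the knockouts of every experiment. The sequences are those of RefSeq for GRCm38.p6, from 250 bases before to 50 bases after the annotated start, read 5′ to 3′ on the strand of the gene. Capitals mark matches, on either strand, to 4 motifs: the carbohydrate response element to which ChREBP binds, searched as CACGNG and CNCGTG with 5 bases between them, the E-box CACGTG, the NF-Y box CCAAT, and the nuclear receptor half-site AGGTCA.
Pklr, chr3:89136373-89136672, plus strand: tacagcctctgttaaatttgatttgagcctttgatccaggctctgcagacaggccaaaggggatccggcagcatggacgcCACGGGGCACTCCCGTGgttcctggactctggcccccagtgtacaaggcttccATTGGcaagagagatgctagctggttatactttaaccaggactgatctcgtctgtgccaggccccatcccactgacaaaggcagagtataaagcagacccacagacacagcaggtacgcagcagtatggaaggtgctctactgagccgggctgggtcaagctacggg
Mlxipl, chr5:135089640-135089939, plus strand: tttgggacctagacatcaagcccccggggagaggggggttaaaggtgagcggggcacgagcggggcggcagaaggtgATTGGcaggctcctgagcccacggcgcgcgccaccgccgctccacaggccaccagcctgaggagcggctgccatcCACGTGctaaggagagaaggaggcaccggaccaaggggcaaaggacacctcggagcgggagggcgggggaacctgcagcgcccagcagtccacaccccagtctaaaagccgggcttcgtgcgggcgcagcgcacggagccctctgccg
Acly, chr11:100527951-100528250, minus strand: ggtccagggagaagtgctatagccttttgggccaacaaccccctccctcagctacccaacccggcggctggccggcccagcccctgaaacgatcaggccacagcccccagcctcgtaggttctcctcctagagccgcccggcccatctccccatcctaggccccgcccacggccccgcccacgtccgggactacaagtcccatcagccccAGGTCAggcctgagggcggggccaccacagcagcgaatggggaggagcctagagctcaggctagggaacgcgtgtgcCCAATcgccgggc
Plin4, chr17:56109733-56110032, minus strand: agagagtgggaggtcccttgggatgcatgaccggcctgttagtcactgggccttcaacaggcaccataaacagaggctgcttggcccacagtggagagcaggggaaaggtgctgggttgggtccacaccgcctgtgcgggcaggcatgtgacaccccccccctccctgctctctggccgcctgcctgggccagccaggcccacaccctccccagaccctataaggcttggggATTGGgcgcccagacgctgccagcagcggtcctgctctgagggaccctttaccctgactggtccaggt

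RefSeq promoters were matched for 29 of the 35 genes, with 43 starts in all. The carbohydrate response element occurred in 0.0457% of 32851 promoters and, among the members, in Pklr alone, where it began 170 bases before the start shown. An E-box, which a match to the longer element can contain, occurred in 7.15% of promoters and in 5 of the 43 member promoters. These belong to Elovl5, Lpin2, Mlxipl, Plin2 and Slc25a1. In Mlxipl it lay 98 bases before the start. The NF-Y box occurred in 37.4% of promoters and in 23 of the 43 member promoters, which belong to 21 members. The half-site occurred in 16.3% of promoters and in 13 of the 43 member promoters, which belong to 11 members. These matches describe letters and not binding.

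Before the results, the labels were set against the targeted genes and against sex-linked genes. Mapk9 lay between 7.99 and 8.53 on the log2 scale in the 6 livers aged 8 weeks, against 2.82 to 3.51 in the other 18, which include the 9 livers labelled control. Mapk9 was thus low on both sides of those 3 comparisons. Mapk8 was lower in the knockouts of all 4 experiments, by 0.87 at 52 weeks, 0.64 after diethylnitrosamine, 1.02 after ligation and 0.61 at 8 weeks, with no overlap between the groups in any of them, and was called at 52 weeks and after ligation. Ikbkg fell by 0.85 in the 52-week knockouts relative to control livers (limma, adjusted p = 0.0043), to a mean of 6.45. At 8 weeks, where both groups carry the NEMO deletion, its means were 7.07 in NEMO and 6.92 in NEMO/JNK1 livers. Groups not labelled as lacking NEMO had means from 6.98 to 7.39, so the level of Ikbkg did not mark the deletion clearly at 8 weeks. JNK knockout replicate 3 after diethylnitrosamine stood apart, with Xist at 10.4 and the Y-linked Eif2s3y at 2.80, against 2.16 to 3.87 and 6.61 to 7.96 in the other 23 livers. Hepatocyte markers averaged between 12.4 and 12.7 in every liver. This lies near the highest value on the arrays, 13.48, so the list may not show a change in hepatocyte content. The mouse identifiers carry the prefix TW187 throughout, except for control replicates 1 and 2 after ligation (TW128) and the 3 NEMO knockouts at 8 weeks (TW51). The labels do not say what the prefix stands for, and mice that share one are called a prefix group here.

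**Figure D1:**
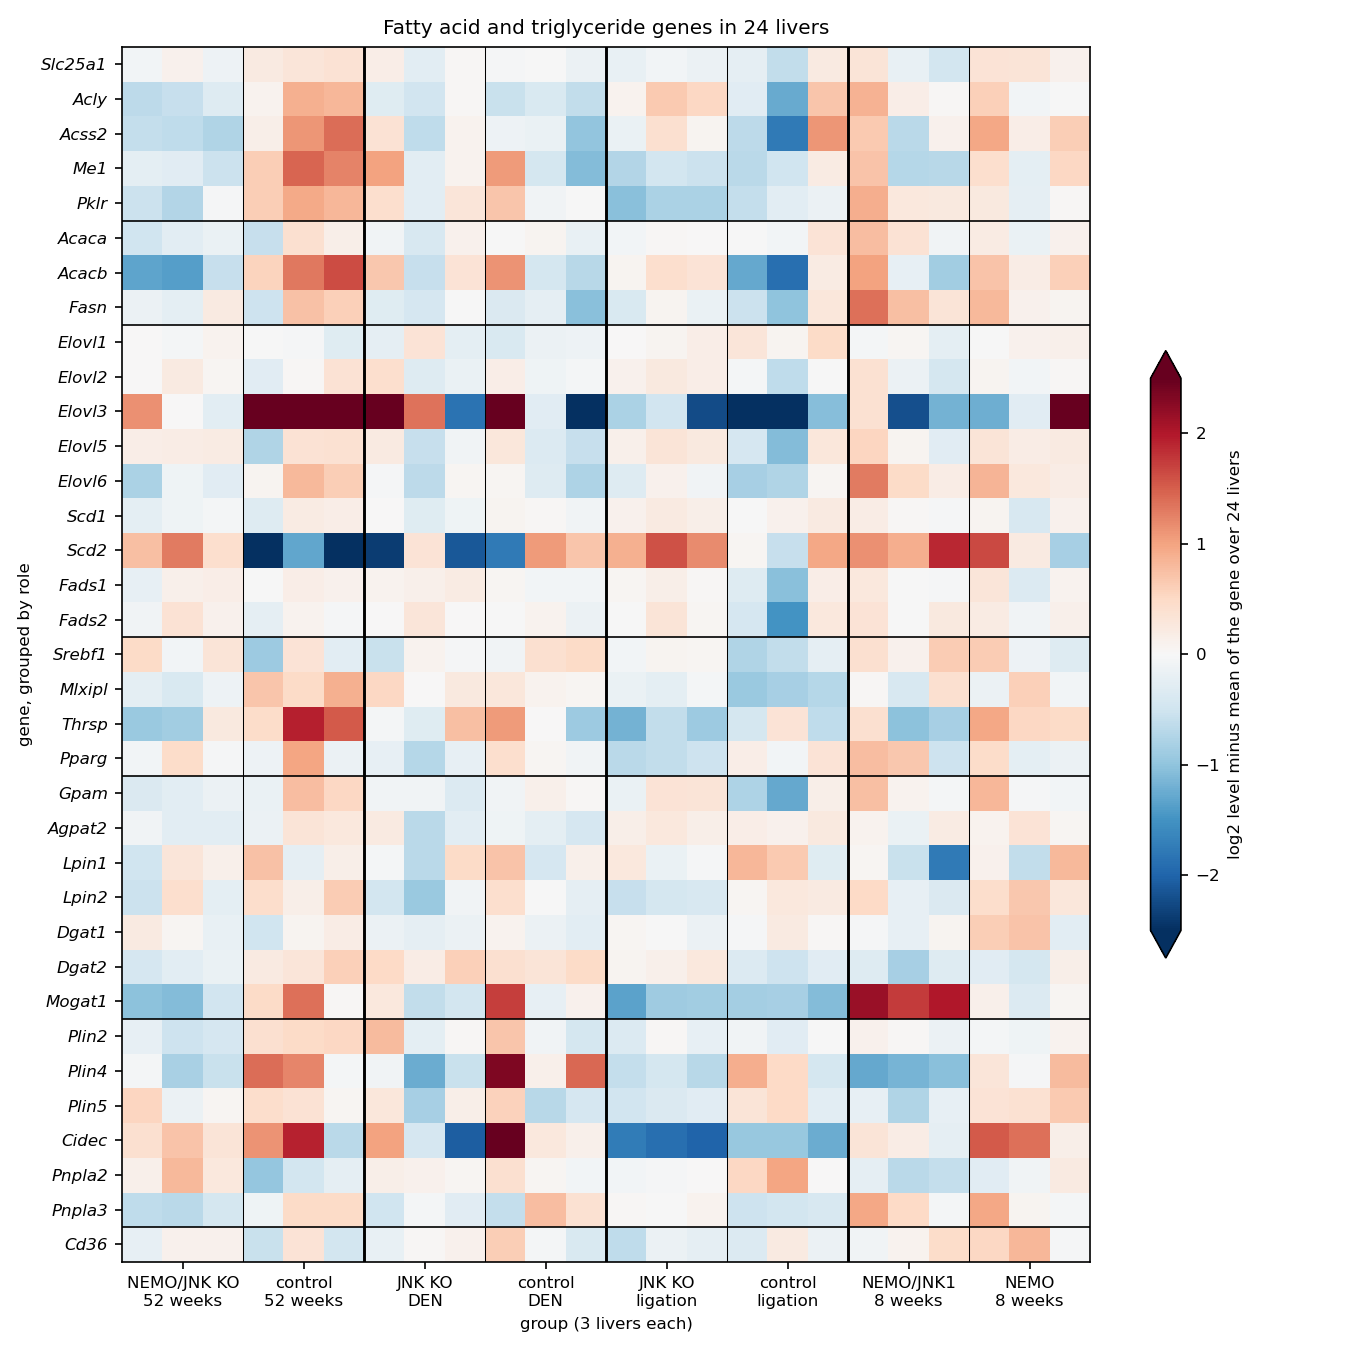
Heat map of the 35 genes (rows, grouped by role) in the 24 livers (columns, 3 per group), coloured by the log2 level minus the mean of that gene over all livers, with the strongest colours at the ends of the bar. Most rows of the 3 control livers aged 52 weeks are red and those of their knockouts blue, while Scd2 runs the other way; Mogat1 is red in the 3 NEMO/JNK1 livers aged 8 weeks.

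Over the 8 groups, the members differed widely in how far their level moved. Group means of Elovl3 spanned 6.46 log2 units, the widest of the 35, with the highest mean (11.56) in 52-week control livers and the lowest (5.10) in control livers after ligation. Scd2 (3.77), Mogat1 (3.00), Cidec (2.92) and Plin4 (2.46) followed in the span of their group means, whereas that of Scd1 was 0.30, the narrowest. The highest group mean fell in 52-week control livers for 11 members and in NEMO/JNK1 livers aged 8 weeks for 9, among them Fasn and Srebf1. The lowest fell in control livers after ligation for 10 members, in JNK knockout livers after ligation for 7 and in 52-week knockout livers for 6. These levels are a description, and age, treatment and genotype differ between the groups together.

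In NEMO/JNK knockout livers aged 52 weeks, 14 of the 35 genes were lower and 2 higher than in control livers, with limma at an adjusted p under 0.05 over all genes. Among all 18820 genes, 7.9% were called lower, 13.6% higher and 21.5% either way. Because the list was chosen with earlier results of these data known, these counts are a description. Members whose groups did not overlap numbered 14 below and 2 above control livers, against 20.3% and 20.9% of all genes. The median log2 difference was -0.33 over the 35 genes and -0.05 over all genes. The lower genes were Acly, Acss2, Me1, Pklr, Acacb, Elovl3, Elovl6, Mlxipl, Thrsp, Dgat2, Mogat1, Plin2, Plin4 and Pnpla3, and the higher ones Scd2 and Pnpla2. Centring each array on its median moved the median of all genes from -0.05 to -0.37, a shift that all genes share. With it 21 members were lower and 2 higher, and the share of all genes called is not set beside them. With all 24 arrays in 1 fit, 12 of the 16 calls held, and those of Elovl3 (adjusted p = 0.099), Elovl6 (0.051), Plin4 (0.0501) and Pnpla3 (0.052) did not.

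Of the 5 carbon supply genes, 4 fell. Acly, ATP citrate lyase, which splits citrate into acetyl-CoA in the cytosol, had log2 levels of 9.16, 9.24 and 9.49 in knockout livers, against 9.91, 10.70 and 10.65 in control livers. The groups did not overlap, and the difference of -1.13 (SE 0.21) was a 2.18-fold fall with adjusted p = 0.0064. Acss2, which makes acetyl-CoA from acetate, stood at 8.54, 8.51 and 8.41 in knockout livers and at 9.30, 10.25 and 10.54 in control livers. It fell by 1.54 (SE 0.28), 2.91-fold, and the 3 knockout values lay within a much narrower span than the control values. Me1, malic enzyme, a source of NADPH for fatty acid synthesis, read 9.50, 9.45 and 9.21 in knockout livers and 10.37, 11.20 and 10.99 in control livers, a fall of 1.46 (SE 0.21). Pklr, liver pyruvate kinase, the last step of glycolysis, read 9.87, 9.69 and 10.39 in knockout livers and 11.03, 11.35 and 11.23 in control livers, a 2.34-fold fall. Adjusted p-values for Acss2, Me1 and Pklr were 0.0050, 0.0018 and 0.0025 by limma. Slc25a1, the mitochondrial citrate carrier, lay lower without overlap (10.28, 10.46 and 10.23 in knockout livers, 10.58, 10.64 and 10.71 in control livers) but was not called (difference -0.32, adjusted p = 0.084).

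Of the enzymes that make the fatty acid chain, 1 of 3 fell. Acacb, the carboxylase isoform at the mitochondrial surface, whose malonyl-CoA restrains fatty acid oxidation, read 5.77, 5.71 and 6.50 in knockout livers, against 7.65, 8.40 and 8.71 in control livers. Every knockout liver lay below every control liver, and the difference of -2.26 (SE 0.29) was a 4.79-fold fall with limma's adjusted p = 0.0011. Acaca, the cytosolic isoform that feeds fatty acid synthesis, read 8.49, 8.72 and 8.82 in knockout livers and 8.40, 9.38 and 9.12 in control livers. Its groups overlapped, and the difference of -0.29 had a 95% interval from -0.83 to 0.24. Fasn, fatty acid synthase itself, also overlapped, at 9.82, 9.71 and 10.20 in knockout livers and 9.44, 10.70 and 10.57 in control livers (difference -0.33, interval -1.02 to 0.37).

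**Figure D2:**
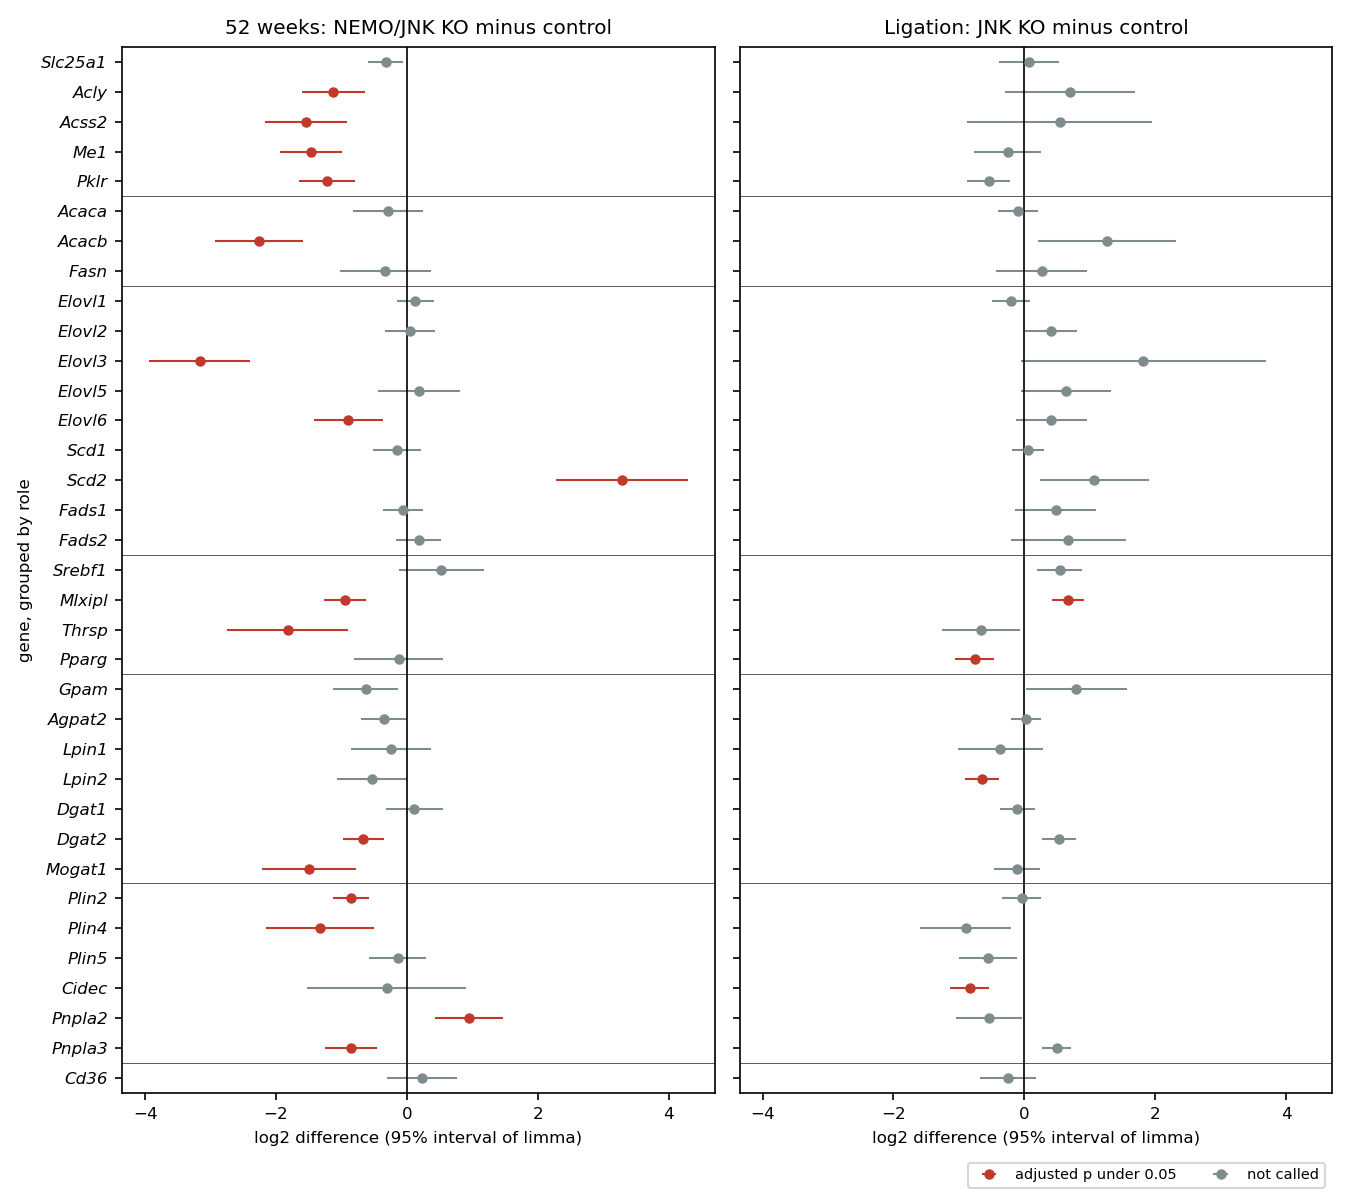
Log2 difference of each of the 35 genes (points) with its 95% interval from limma (bars) at 52 weeks on the left and after bile duct ligation on the right, in red where the adjusted p was under 0.05. At 52 weeks 14 red points lie below 0 and 2 above; after ligation 3 lie below and 1, Mlxipl, above.

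Among the elongases and desaturases, Elovl3 and Elovl6 fell and Scd2 rose, while the other 6 were not called. Elovl3, which elongates saturated and monounsaturated very-long chains, read 9.25, 8.11 and 7.83 in knockout livers and 11.68, 11.19 and 11.82 in control livers, an 8.99-fold fall (difference -3.17, SE 0.34, limma's adjusted p = 0.00044). Elovl3 is higher in male than in female mouse liver and follows the body clock. In the same comparison all 9 male-biased liver genes were lower, the mean of their log2 levels ranging from 6.83 to 7.30 in knockout livers and from 9.39 to 10.7 in control livers. Of 8 clock genes, 3 were higher and 4 lower, among them Arntl, which fell by 1.36, and Per3, which rose by 1.42. The part of either list in the Elovl3 result was not tested.

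Scd2, the stearoyl-CoA desaturase that is prominent outside the adult hepatocyte, read 10.18, 10.74 and 9.85 in knockout livers, against 6.47, 8.14 and 6.32 in control livers. The rise of 3.28 (SE 0.44) was 9.72-fold, with limma's adjusted p = 0.0014. Scd1, the main desaturase of the hepatocyte, was not called, with 12.51, 12.64 and 12.70 in knockout livers, 12.43, 12.96 and 12.91 in control livers, and a difference of -0.15 (95% interval -0.51 to 0.21). Scd1 lay near the top of the arrays, whose highest value for any gene or probe set was 13.48. In this comparison markers of 2 other cell types moved in the direction of Scd2. All 8 biliary epithelium markers were higher, at 7.88 to 8.26 in knockout livers and 4.59 to 5.27 in control livers as a mean over the list, and 8 of 10 macrophage markers were higher, at 8.08 to 8.91 in knockout livers and 6.70 to 7.47 in control livers. Krt19, the defining keratin of bile duct cells, rose by 4.40. In NEMO/JNK1 livers aged 8 weeks the mean of Scd2 was the highest of the 8 groups, at 10.75. There the biliary list averaged 5.04 to 5.72 and the macrophage list 7.51 to 9.54. The part of these markers in the Scd2 result was not tested.

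Elovl6, which lengthens palmitate to stearate, read 8.18, 8.87 and 8.70 in knockout livers and 9.05, 9.78 and 9.60 in control livers (difference -0.89, SE 0.23, limma's adjusted p = 0.024). The call depended on single livers. It was lost without control replicate 2 (0.073) or 3 (0.077) and without knockout replicate 1 (0.075) or 3 (0.056). Elovl1, Elovl2 and Elovl5, which act on very-long and polyunsaturated chains, differed by 0.13, 0.05 and 0.19, and the desaturases of polyunsaturated fatty acids Fads1 and Fads2 by -0.07 and 0.18. All 5 overlapped between the groups. At 11.87, 11.87 and 11.90, Elovl5 was nearly constant among knockout livers, and 1 control liver, at 10.94 beside 12.07 and 12.08, made up most of its spread.

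The regulators did not move together. Mlxipl (ChREBP) read 9.22, 9.08 and 9.32 in knockout livers, against 10.16, 9.94 and 10.35 in control livers, a fall of 0.94 (SE 0.14, limma's adjusted p = 0.0022). The groups lay well apart relative to their spread. Srebf1 read 8.63, 8.10 and 8.49 in knockout livers and 7.24, 8.49 and 7.89 in control livers, overlapping, with a difference of 0.53 (95% interval -0.12 to 1.18) on the opposite side of 0. Thrsp, the lipogenic protein Spot 14, read 8.69, 8.73 and 9.86 in knockout livers and 10.07, 11.55 and 11.14 in control livers, a 3.54-fold fall (difference -1.82, SE 0.41, adjusted p = 0.014). Pparg, the nuclear receptor that drives fat storage in steatotic liver, differed by -0.12 (interval -0.80 to 0.56).

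In triglyceride assembly, Dgat2 and Mogat1 fell and the other 5 genes were not called. Dgat2, the acyltransferase that uses newly made fatty acids, read 10.10, 10.26 and 10.35 in knockout livers and 10.75, 10.84 and 11.12 in control livers, a fall of 0.66 (SE 0.14, limma's adjusted p = 0.010). Mogat1, which acylates monoglycerides and is low in healthy liver, read 2.64, 2.58 and 3.19 in knockout livers and 4.15, 5.05 and 3.70 in control livers. It fell by 1.50 (SE 0.32, adjusted p = 0.011). These levels lie below the median over all genes, 5.29. Gpam, the first acyltransferase, and Agpat2, the next, differed by -0.63 (adjusted p = 0.073) and -0.36 (0.13). The phosphatidate phosphatases Lpin1 and Lpin2 differed by -0.24 and -0.53, and Dgat1, the other diglyceride acyltransferase, by 0.12, with overlap in each.

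On the droplet, 3 genes fell and 1 rose. Plin2, the main perilipin of the liver droplet, read 10.64, 10.33 and 10.44 in knockout livers and 11.26, 11.34 and 11.37 in control livers. This fall of 0.85 (SE 0.12, limma's adjusted p = 0.0019) had little spread on either side. Plin4, a perilipin of nascent droplets best known from fat cells, read 5.72, 4.95 and 5.21 in knockout livers and 7.16, 6.99 and 5.71 in control livers. The lowest control liver lay just below the highest knockout liver, and the fall of 1.33 (SE 0.36, adjusted p = 0.031) was not called without control replicate 1 (0.10) or 2 (0.088) or without knockout replicate 2 (0.088) or 3 (0.090). Pnpla3, the lipid droplet protein whose human variant is tied to fatty liver, fell by 0.86 (SE 0.18). It read 4.54, 4.49 and 4.72 in knockout livers and 5.05, 5.64 and 5.64 in control livers. Its mean over all livers, 5.16, lay below the median over all genes, 5.29. Pnpla2, adipose triglyceride lipase, which empties the droplet, went the other way, with 8.61, 9.29 and 8.74 in knockout livers and 7.52, 8.03 and 8.25 in control livers. Its rise of 0.94 (SE 0.23, adjusted p = 0.019) was lost without control replicate 1 (0.055) or knockout replicate 2 (0.0503). Plin5, which links droplets to mitochondria, and Cidec, which fuses droplets, differed by -0.14 and -0.31, with overlap. Cd36, a fatty acid uptake protein, differed by 0.23 (95% interval -0.30 to 0.76). Of 8 adipocyte markers 0 were higher and 1 was lower, and Adipoq, which defines fat cells, lay between 2.65 and 3.36 in these 6 livers.

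**Figure D3:**
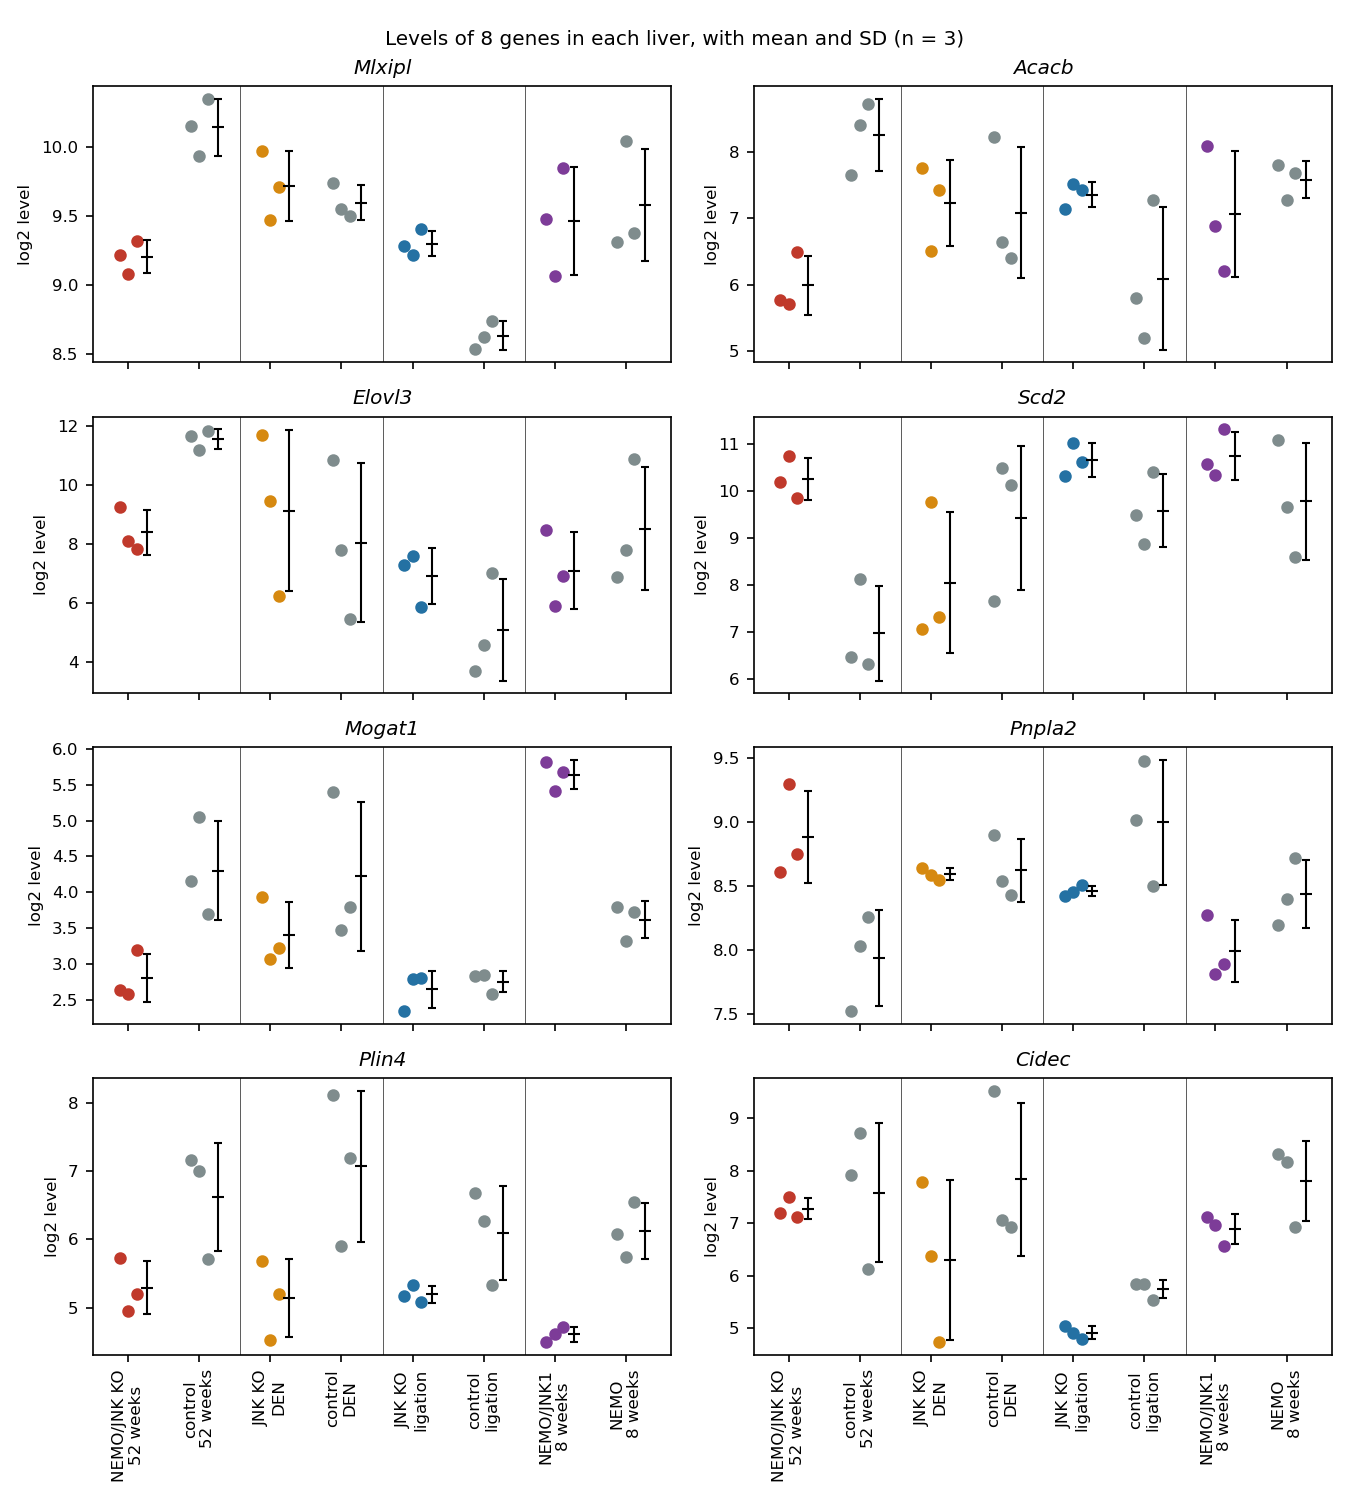
Log2 level of 8 genes in each liver (points, 3 per group) with the mean and SD beside them, the knockout group left of its comparison group in each of the 4 experiments. The levels of Scd2 in 52-week control livers, between 6.32 and 8.14, lie below those of their knockouts, Mogat1 is highest in the 8-week NEMO/JNK1 livers, and Plin4 has a lower mean in all 4 knockout groups.

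After diethylnitrosamine the JNK knockout was not distinguishable from control in any of the 35 genes with limma, and 0% of all genes were called. At an unadjusted p under 0.05 there were 2 of the 35 members, Plin4 and Pparg, both lower, against 781 of all 18820 genes. Groups did not overlap for 1 member above control, Fads1, and 3 below, Plin4, Pparg and Gpam, against 3.26% and 6.21% of all genes. Plin4 read 5.68, 4.53 and 5.20 in knockout livers, against 8.10, 5.90 and 7.19 in control livers, without overlap (difference -1.93, SE 0.56, adjusted p = 0.985). Pparg read 6.80, 6.29 and 6.80 in knockout livers and 7.42, 7.05 and 6.91 in control livers (difference -0.49). The livers of a group were far apart. Elovl3 read 11.69, 9.46 and 6.25 in knockout livers and 10.85, 7.81 and 5.48 in control livers. Scd2 read 7.06, 9.78 and 7.31 in knockout livers and 7.67, 10.50 and 10.13 in control livers. In both groups Elovl3 fell from replicate 1 to replicate 3, and Scd2 was highest in replicate 2. The mean of the male-biased liver genes also varied within each group, at 6.29 to 10.7 in knockout livers and 7.38 to 9.86 in control livers, and its part was not tested. Without knockout replicate 3, whose sex-linked genes stood apart, 0 members were called as well, and the difference of Plin4 was -1.96.

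After bile duct ligation, JNK knockout livers had 1 member higher and 3 lower than control livers. Of all genes 1.35% were called with limma, 0.797% higher and 0.558% lower. Mlxipl, which fell at 52 weeks, was the higher one, with 9.28, 9.22 and 9.41 in knockout livers, against 8.54, 8.62 and 8.74 in control livers (difference 0.67, SE 0.11, adjusted p = 0.030). Cidec read 5.05, 4.92 and 4.79 in knockout livers and 5.85, 5.85 and 5.55 in control livers, a fall of 0.83 (SE 0.13, adjusted p = 0.026). Pparg, known in mouse liver to raise Cidec, read 6.33, 6.39 and 6.48 in knockout livers and 7.17, 6.94 and 7.35 in control livers, a fall of 0.76 (SE 0.13, adjusted p = 0.037). Lpin2 read 8.94, 9.07 and 9.12 in knockout livers and 9.56, 9.78 and 9.74 in control livers, a fall of 0.65 (SE 0.11, adjusted p = 0.038). The groups overlapped for none of these 4. Over all members, 5 lay above control without overlap and 6 below, against 9.95% and 10.7% of all genes.

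None of the 4 calls after ligation held in every alternative. In 1 fit of 24 arrays their adjusted p-values were 0.14 for Mlxipl, 0.79 for Cidec, 0.40 for Pparg and 0.34 for Lpin2. Leaving out control replicate 1 or any 1 of the knockout livers left 0 calls, and leaving out control replicate 2 left those of Pparg and Cidec. Control replicates 1 and 2 carry another prefix than the other 4 livers. With the prefix as a block no member was called, and against control replicate 3 alone, of the same prefix, the differences were 0.56 for Mlxipl, -0.63 for Cidec, -0.95 for Pparg and -0.70 for Lpin2, each with its sign kept.

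Other members hinged on control replicate 3 of the ligation comparison. It read 7.28 for Acacb where control replicates 1 and 2 read 5.80 and 5.20, and the knockout livers read 7.14, 7.51 and 7.42. For Elovl3 it read 7.03 beside 3.68 and 4.59, with 7.30, 7.61 and 5.85 in knockout livers. Without it 11 members were called, among them Acacb (difference 1.86, limma's adjusted p = 0.0076), Elovl3 (2.78, 0.040), Scd2 (1.48, 0.031), Gpam (1.19, 0.037) and Srebf1 (0.70, 0.027) as higher and Plin4 (-1.28, 0.012), Plin5 (-0.78, 0.023) and Pnpla2 (-0.78, 0.046) as lower. Genotype and prefix then coincide and cannot be told apart. The share of all genes called in that fit is not set beside this count, which is therefore no result about the members. Against control replicate 3 alone the differences were 0.08 for Acacb, -0.11 for Elovl3, 0.26 for Scd2 and -0.14 for Plin4. With all 6 livers the differences were 1.26 for Acacb, 1.82 for Elovl3 and 1.07 for Scd2, with adjusted p-values of 0.25, 0.36 and 0.22. Pnpla3 (difference 0.50, adjusted p = 0.057) and Dgat2 (0.53, 0.074) lay higher without overlap and were not called, though Dgat2 was with dim genes left out (0.047).

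At 8 weeks, no member was called between NEMO/JNK1 and NEMO livers with limma, and 0% of all genes were. At an unadjusted p under 0.05 there were 5 of the 35 members, against 1442 of all 18820 genes. Groups did not overlap for 2 members above, Mogat1 and Pklr, and 3 below, Plin4, Plin5 and Thrsp, against 6.71% and 7.66% of all genes. Mogat1 read 5.83, 5.42 and 5.68 in NEMO/JNK1 livers, against 3.80, 3.32 and 3.73 in NEMO livers, a 4.07-fold difference without overlap (log2 difference 2.02, SE 0.18, adjusted p = 0.080). In 1 fit of 24 arrays it was called, with adjusted p = 0.027. These NEMO/JNK1 values were the highest of the series, and the next group mean, 4.30, was that of 52-week control livers. Plin4 read 4.50, 4.61 and 4.72 in NEMO/JNK1 livers and 6.07, 5.75 and 6.55 in NEMO livers (difference -1.51, SE 0.21, adjusted p = 0.36). Plin5 read 7.65, 7.11 and 7.64 in NEMO/JNK1 livers and 8.20, 8.24 and 8.50 in NEMO livers (difference -0.84). Thrsp and Cidec differed by -1.15 and -0.92. The NEMO livers carry a prefix of their own, so prefix and genotype cannot be told apart here.

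The 2 injuries were also compared within a genotype. The durations differ, at 40 days of diethylnitrosamine and 28 days of ligation, and the ages are not given. Injury, time and any difference in age therefore go together. In JNK knockout livers no member differed between ligation and diethylnitrosamine with limma, against 0.77% of all genes higher and 0.313% lower (1.08% in all). At an unadjusted p under 0.05 there were 8 of the 35 members, against 2530 of all 18820 genes. Pklr came nearest, at 9.37, 9.61 and 9.63 after ligation and 10.84, 10.15 and 10.72 after diethylnitrosamine (difference -1.03, adjusted p = 0.071). Scd2 read 10.33, 11.03 and 10.61 after ligation and 7.06, 9.78 and 7.31 after diethylnitrosamine (difference 2.61, adjusted p = 0.16), and without diethylnitrosamine replicate 2 it was called with Pklr, Thrsp and Plin5. Without the replicate 3 whose sex-linked genes stood apart, 0 members were called.

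In control livers Mlxipl and Dgat2 were lower after ligation than after diethylnitrosamine, against 0.739% of all genes lower, 1.74% higher and 2.48% in all. Mlxipl read 8.54, 8.62 and 8.74 after ligation and 9.74, 9.55 and 9.50 after diethylnitrosamine (difference -0.96, SE 0.12, limma's adjusted p = 0.014). Dgat2 read 10.19, 10.01 and 10.24 after ligation and 10.92, 10.85 and 11.00 after diethylnitrosamine (difference -0.78, SE 0.12, adjusted p = 0.023). Stellate cell and fibroblast markers were higher after ligation for 8 of 10 genes in control livers and 6 of 10 in JNK knockout livers, and their part was not tested. With the prefix as a block neither Mlxipl nor Dgat2 was called (0.24 and 0.32). Mlxipl was also lost without control replicate 2 after diethylnitrosamine (0.063) or control replicate 1 after ligation (0.076). Dgat2 kept its call in 1 of 6 fits that left out a liver, without control replicate 3 after ligation.

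The difference between experiments was tested directly. The 52-week knockout difference lay below the JNK difference after ligation for 11 members and above it for 2, against 6.05% and 10.4% of all genes, 16.5% in all. For Mlxipl the 2 differences were -0.94 and 0.67, and the test of their difference gave -1.61 (SE 0.17, limma's adjusted p = 0.00017). Acacb had -2.26 at 52 weeks and 1.26 after ligation (difference -3.52, adjusted p = 0.0024), and Elovl3 had -3.17 and 1.82 (-4.99, 0.0051). Pnpla2 had 0.94 at 52 weeks and -0.54 after ligation (1.48, 0.013), and Pnpla3 had -0.86 and 0.50 (-1.36, 0.0011). Dgat2 had -0.66 and 0.53 (-1.20, 0.00093) and Plin2 had -0.85 and -0.04 (-0.81, 0.0087). The calls of Mlxipl, Acacb and Dgat2 held in all 19 alternatives run. Those of Acly, Me1, Elovl6, Scd2, Gpam and Mogat1, with adjusted p-values from 0.026 to 0.045, each failed in at least 8 alternatives. With the prefix as a block 6 of the 13 calls held, those of Acacb (-2.33), Elovl3 (-3.06), Scd2 (3.02), Mlxipl (-1.50), Dgat2 (-1.11) and Pnpla3 (-1.30). Under that block Pnpla2 (0.99, adjusted p = 0.14) and Plin2 (-0.69, 0.086) were not called, nor were Acly, Me1, Elovl6, Gpam and Mogat1. In 1 fit of 24 arrays Elovl3 (0.098), Scd2 (0.21), Plin2 (0.13) and Pnpla3 (0.051) were not called. Me1 (0.25), Elovl6 (0.069) and Mogat1 (0.11) were not called in that fit either. In the same test 6 of 8 biliary markers were higher. Of 9 male-biased liver genes 5 were lower and 0 higher, and of 8 clock genes 3 were higher and 3 lower. The part of these lists was not tested.

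The 52-week difference lay below the JNK difference after diethylnitrosamine for 2 members, Acly (-1.39, limma's adjusted p = 0.036) and Mlxipl (-1.06, 0.032), against 0.675% of all genes lower, 1.66% higher and 2.33% in all. Each call was kept in only 3 of 12 fits that left out a liver, and without JNK knockout replicate 3 they were at 0.073 and 0.065. Between the JNK difference after ligation and that after diethylnitrosamine, 0 members differed with limma, against 0.0478% of all genes called, 0.0213% higher and 0.0266% lower. At an unadjusted p under 0.05 there were 5 of the 35 members, against 1338 of all 18820 genes. These tests share livers and are not independent of each other.

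The mean of the 4 knockout differences was added after the values had been seen. It was lower for 3 members and higher for none, against 2.45% of all genes lower, 4.99% higher and 7.44% in all. Plin4 had a mean difference of -1.42 (SE 0.23, limma's adjusted p = 0.0017), which was the lowest of all 18820 genes, followed by Cyp4a12a at -1.41 (not called, adjusted p = 0.26). The 4 differences of Plin4 were -1.33 at 52 weeks, -1.93 after diethylnitrosamine, -0.90 after ligation and -1.51 at 8 weeks, and the groups did not overlap in the last 3. After ligation Plin4 read 5.17, 5.33 and 5.08 in knockout livers and 6.67, 6.27 and 5.33 in control livers, so the nearest livers of the 2 groups differed by less than 0.01. The ligation difference was -0.14 against the control liver of the same prefix and -1.28 against those of the other prefix, and at 8 weeks prefix and genotype coincide. Lpin2 had a mean of -0.56 (SE 0.12, adjusted p = 0.013), with -0.53, -0.55, -0.65 and -0.49 in the same order of experiments. Its levels overlapped between the groups in all experiments but ligation, with 9.07, 8.59 and 9.43 in knockout livers and 9.93, 9.51 and 9.29 in control livers after diethylnitrosamine. At 8 weeks it read 10.01, 9.30 and 9.16 in NEMO/JNK1 livers and 9.95, 10.20 and 9.81 in NEMO livers. Both calls held in all 29 alternatives, none of them with the prefix as a block, in which the adjusted p of Plin4 did not exceed 0.00455 and that of Lpin2 0.0281. Thrsp had a mean of -0.89 (adjusted p = 0.030) and kept its call in 19 of 29, and its differences were -1.82, 0.08, -0.66 and -1.15. The 6 droplet genes all had a mean below 0, and 27 of the 35 members did, against 10755 of 18820 genes. Of the markers of other cells, 6 of 8 biliary, 5 of 10 macrophage and 0 of 8 adipocyte markers were higher in this mean, and their part in it was not tested. Plin1, the perilipin that coats the droplets of fat cells, lay between 3.45 and 4.54 in all 24 livers.

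**Figure D4:**
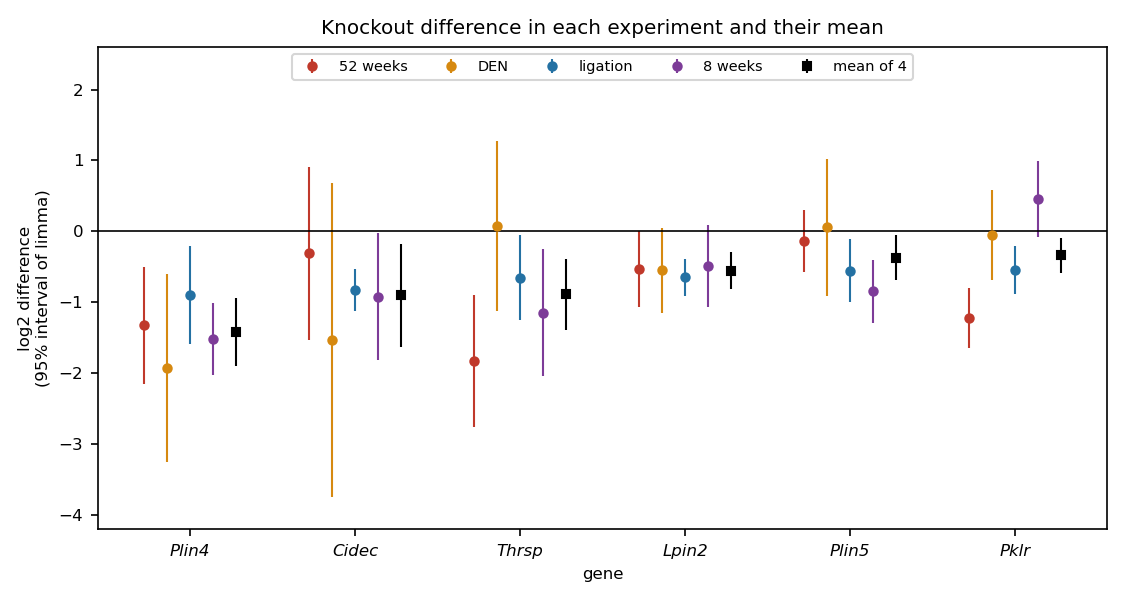
Log2 difference between knockout and comparison livers (points, with 95% intervals of limma as bars) for 6 genes in each of the 4 experiments, and the mean of the 4 (squares). Plin4 and Lpin2 lie below 0 in all 4, whereas Pklr lies at -1.22 at 52 weeks and 0.46 at 8 weeks.

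Of 64 other genes of the pathway, 57 were measured, and at 52 weeks 7 were higher and 12 lower in knockout livers. Elovl7, an elongase of saturated very-long chains, rose by 2.86, with 7.05, 6.63 and 6.89 in knockout livers, against 4.28, 4.20 and 3.53 in control livers. Lpl, lipoprotein lipase, which is low in adult hepatocytes, rose by 3.32, with 10.32, 10.49 and 10.23 in knockout livers and 6.48, 8.22 and 6.39 in control livers, and Slc27a1, a fatty acid transporter, rose by 1.03. Fitm1, which helps to form droplets, fell by 2.07, Fabp1, the fatty acid binding protein of the hepatocyte, by 1.07, and G0s2, the inhibitor of Pnpla2, by 1.73 (limma's adjusted p = 0.0013). Pnpla2 and its inhibitor thus differed in opposite directions, with G0s2 at 7.75, 7.32 and 7.83 in knockout livers and 9.62, 8.84 and 9.61 in control livers.

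After ligation, 1 of the 57 other genes was higher and 2 lower in JNK knockout livers. Fabp5, a fatty acid binding protein of epithelium and macrophages, rose by 1.94, with 8.65, 9.08 and 8.86 in knockout livers and 6.93, 6.84 and 7.02 in control livers (limma's adjusted p = 0.00085). Elovl7 fell by 1.91, with 5.86, 5.45 and 6.11 in knockout livers and 8.00, 7.60 and 7.55 in control livers, opposite to its direction at 52 weeks. The test of these 2 differences gave 4.77 (adjusted p = 7.35e-06). Hsd17b13, a droplet protein of the hepatocyte, fell by 0.92, with 10.69, 10.82 and 10.83 in knockout livers and 11.80, 11.48 and 11.82 in control livers. In the mean of the 4 differences Hsd17b13 and its relative Hsd17b11 were lower, by 0.38 and 0.34, and Agpat4, a lysophosphatidate acyltransferase, higher by 0.53. None of the 57 was called after diethylnitrosamine or at 8 weeks, where the smallest unadjusted p-values were those of Plin3 (difference -0.55) and Hsd17b13 (-0.43) after diethylnitrosamine and of Insig2 (-0.71) and Idh1 (-0.51) at 8 weeks. In JNK knockout livers, ligation set against diethylnitrosamine gave higher Lpl (2.55) and Fabp5 (2.25) and lower Fitm1 (-2.52) and G0s2 (-1.71). In control livers that contrast gave no call, with Fabp1 (-1.46) and Fitm1 (-2.38) nearest.

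Genes that respond to fasting did not move one way at 52 weeks, where 2 of 9 were higher and 2 lower, with a list mean of 8.72 to 9.03 in knockout livers and 8.69 to 9.21 in control livers. Stellate cell and fibroblast markers had 1 of 10 higher and 1 lower at 52 weeks, and 1 higher and 1 lower after ligation. After ligation 1 of 8 biliary and 1 of 10 macrophage markers were higher in knockout livers, and 0 of 8 adipocyte markers were called. The part of these lists in the results was not tested. No label gives the feeding state or the time of day at which livers were taken.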

How the data were processed

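RNA of 24 livers was hybridised to Affymetrix whole-transcript arrays, and the authors deposited log2 values. These came from RMA, which the submitters' processing notes name. RMA subtracts background, equalises the arrays and summarises probes, so intensities before these steps were not used here. Neither the program nor the chip definition is stated in those notes. Of 35556 probe sets, 21218 carried 1 gene symbol, 1881 several and 12457 none. The highest-mean probe set stood for each of 18820 genes. Array medians over all probe sets lay between 4.52 and 4.66, while centring used the array medians over the 18820 genes. Arrays of a group correlated at 0.966 to 0.987 across probe sets, and the 3 livers per group limit the precision.

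Each comparison was fitted on its own arrays with limma 3.58.1 in R 4.3.3, two-sided, with Benjamini-Hochberg adjustment over all genes, and calls needed an adjusted p below 0.05. The fit was tested on simulated data. An exact permutation test of 3 against 3 livers cannot go below 0.1. Replicates were numbered in the labels, and p-values measure the spread between mice. Alternatives were quantile normalization, centring, leaving out dim genes, 1 fit of all arrays, averaging probe sets, blocks for replicate number and for the prefix of the mouse identifier, whose meaning the labels do not give, and leaving out each liver.

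All members are reported. Of the other pathway genes, up to 6 called ones with the smallest adjusted p are named per comparison, or 2 where none was called. The members and lists were chosen with earlier results of these data known. The mean of the 4 knockout differences was added after the data had been seen.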

Additional observations from a re-analysis of the deposited data

Results flagged for a closer look

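The knockout difference at 52 weeks and the JNK knockout difference after ligation differed by limma's test of the difference for 13 members. The 52-week difference minus the ligation difference, on the log2 scale, was -1.83 for Acly, -1.21 for Me1, -3.52 for Acacb and -4.99 for Elovl3. It was -1.31 for Elovl6, -1.61 for Mlxipl, -1.43 for Gpam, -1.20 for Dgat2 and -1.39 for Mogat1. Plin2 had -0.81 and Pnpla3 -1.36, while Scd2 (2.21) and Pnpla2 (1.48) lay on the other side of 0. Against the JNK difference after diethylnitrosamine, the 52-week difference was lower by the same test for Acly (-1.39) and Mlxipl (-1.06). With the prefix of the mouse identifier as a block, Acly (-0.85), Me1 (-0.68), Elovl6 (-0.75), Gpam (-0.64), Mogat1 (-1.56), Plin2 (-0.69) and Pnpla2 (0.99) were not called. Acacb (-2.33), Elovl3 (-3.06), Scd2 (3.02), Mlxipl (-1.50), Dgat2 (-1.11) and Pnpla3 (-1.30) were. The genotypes, ages and treatments of these experiments, and the prefixes of 2 ligation controls, differ together and cannot be told apart.

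Xist, which no comparison above uses, stood at 10.4 in JNK knockout replicate 3 after diethylnitrosamine, against 2.16 to 3.87 in the other 23 livers. Without this liver, Plin4 after diethylnitrosamine differed by -1.96, Scd2 by -1.01 and Cidec by -0.75, against -1.93, -1.38 and -1.53 with it. Elovl3, which is higher in male liver, differed by 2.53 without this liver and by 1.09 with it, and was called in neither fit.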

How the results depend on the processing

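Over all alternatives 5545 values of members were recomputed, of which 493 kept a call, 143 lost one, 71 gained one and 0 reversed a called direction. At 52 weeks the 16 calls became 12 with all 24 arrays in 1 fit, 23 with centred arrays, 17 with the replicate block and 14 to 18 without 1 liver. After ligation the 4 calls became 0 with all 24 arrays, 1 with the replicate block, 0 with the prefix block, 5 with dim genes left out, which added Dgat2, and 0 to 11 without 1 liver. At 8 weeks 24 arrays gave 1 call. Between injuries, JNK knockout livers had 1 call with quantile normalization, 1 with 24 arrays and 0 to 4 without 1 liver. Control livers had 0 with the replicate block, 0 with the prefix block and 0 to 4 without 1 liver. The test of ligation against diethylnitrosamine effects gave 0 or 1 without 1 liver, the call being Pnpla3 without control replicate 1 after diethylnitrosamine. The 13 calls between 52 weeks and ligation became 6 with 24 arrays, 6 with the prefix block and 7 to 14 without 1 liver, with 7 without control replicate 1 and also without knockout replicate 3 after ligation. The 2 calls between 52 weeks and diethylnitrosamine became 0 to 7 without 1 liver, with 7 without control replicate 1 and also without knockout replicate 2 after diethylnitrosamine. The mean of 4 had 6 calls with centred arrays, and 2 to 5 without 1 liver, with 5 without JNK knockout replicate 1 after diethylnitrosamine and 2, by loss of Thrsp, in 10 of 24 such fits. The shares of all genes called under these alternatives are not set beside these counts, and the cause of the moves was not tested.

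Same-numbered mice did not deviate together in every pair (correlations 0.02, 0.04 and 0.02 at 52 weeks, where each mouse nonetheless correlated best with its own number, 0.36, 0.30 and 0.04 after diethylnitrosamine, where replicates 1 and 2 correlated best with their own number, 0.14, -0.07 and 0.04 after ligation, and 0.01, -0.02 and -0.07 at 8 weeks). No comparison had every pair above 0.1, so the mice were taken to share only a number. After diethylnitrosamine the pair at 0.04 holds the JNK knockout liver whose sex-linked genes stood apart. Whether replicates 1 and 2 there were paired is not settled by these values. Centring moved the median of all genes by over 0.1 at 52 weeks, in control livers between injuries (to -0.14), in both tests against 52 weeks (to -0.34 and -0.26) and in the mean of 4 (to -0.15). Dim genes left out removed Mogat1 and Pnpla3, so neither has a value there. The prefix block could not be fitted for JNK knockout livers between injuries, all of 1 prefix, and was not run for the mean of 4. Levels near background, such as those of Mogat1, limit what a difference can show.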
